A study of Danio rerio with 8 samples.

Results

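The genes described here encode proteins that hepatocytes release into the blood plasma: carriers, matrix and adhesion proteins, fibrinogen, clotting factors, their inhibitors and the enzymes of clot removal. Apolipoproteins of lipoproteins and complement were left out. The members were a named list of 34 zebrafish genes, found in the data by matching each row's RefSeq accession to a gene symbol, and 26 of the 34 had a row among 15600 rows in all. No row could be matched by accession for itih2, ttr, hpx, fga, f5, a2ml, apoh and hpxb, and these 8 are not analysed here. Each matched gene had 1 row.

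The data are from zebrafish liver, as 3' RNA-SAGE libraries read on the SOLiD sequencer. In this assay each transcript yields 1 tag close to its 3' end, so a value does not grow with transcript length and genes can be compared by their level in CPM, the tag count scaled to the same total in every library. There were 4 groups of 2 libraries. M-D- were wild-type siblings with no treatment, M-D+ were wild-type siblings on doxycycline, M+D- were untreated transgenic fish, and M+D+ were transgenic fish on doxycycline, whose libraries are labelled as liver tumour. The transgenic genotype was Tg(fabp10:TA; TRE:Myc; krt4:GFP): the liver promoter fabp10 drives a transactivator, a response element places Myc under it, and a krt4 promoter drives a green fluorescent reporter, so M+D- fish carry all 3 transgenes too. Doxycycline began 21 days after fertilization. The labels give no age at sampling and do not say whether libraries of a group are from different animals, so p-values cover the spread between libraries only, which may be technical.

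The liver makes nearly all of these proteins and secretes them continuously. In clotting, a cascade of proteases (factors VII, IX and X, with factor V as a cofactor) activates prothrombin, and thrombin then cuts fibrinogen, which is built of an alpha, a beta and a gamma chain, into fibrin. Antithrombin, heparin cofactor II, protein C and protein S restrain the cascade, and plasmin, made from plasminogen, dissolves the clot. Many genes of this set are textbook markers of differentiated hepatocytes, and in mammals their transcription depends on liver-enriched factors such as the HNF1, HNF4 and C/EBP families.

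Library totals ran from 1682372 to 6399932 tags. The hepatocyte marker fabp10a stood at 79291 to 210286 CPM in all 8 libraries. The libraries differed in composition: TMM, a scaling that takes most rows as unchanged, gave M-D+ libraries factors of 1.71 and 1.42, M+D+ libraries factors of 0.701 and 0.857, and the other libraries factors of 0.817 to 0.961. On the deposited scale the median log2 change of all 4577 tested rows in M+D+ against the average of the 3 control groups was -0.57, and after TMM scaling it was -0.13. For the called genes that comparison's change is therefore also given relative to the median row. Means are ± SD with n = 2, and changes are on the log2(CPM + 1) scale ± standard error, tested with limma and called at a Benjamini-Hochberg adjusted p below 0.05 over all tested rows.

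Together the 26 genes took 2.56% ± 0.12 of the M-D- tags, 3.08% ± 0.23 of those of M+D-, 3.27% ± 0.30 of those of M-D+ and 1.56% ± 0.48 of those of M+D+. The M+D+ libraries held 1.22% and 1.89%, both below the control libraries at 2.48% to 3.48%. After TMM scaling the values are no longer shares of the tags. The summed scaled CPM was then 17361 and 22097 in M+D+ and ran from 17824 to 33866.5 in the controls, so the groups overlapped. In bulk liver RNA, fewer cells of a type and less RNA per cell cannot be told apart. In M+D+ library 1, 20 of the 23 tested genes (87.0%) were lower than in M+D+ library 2, against 61.5% of all tested rows.

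**Figure D1:**
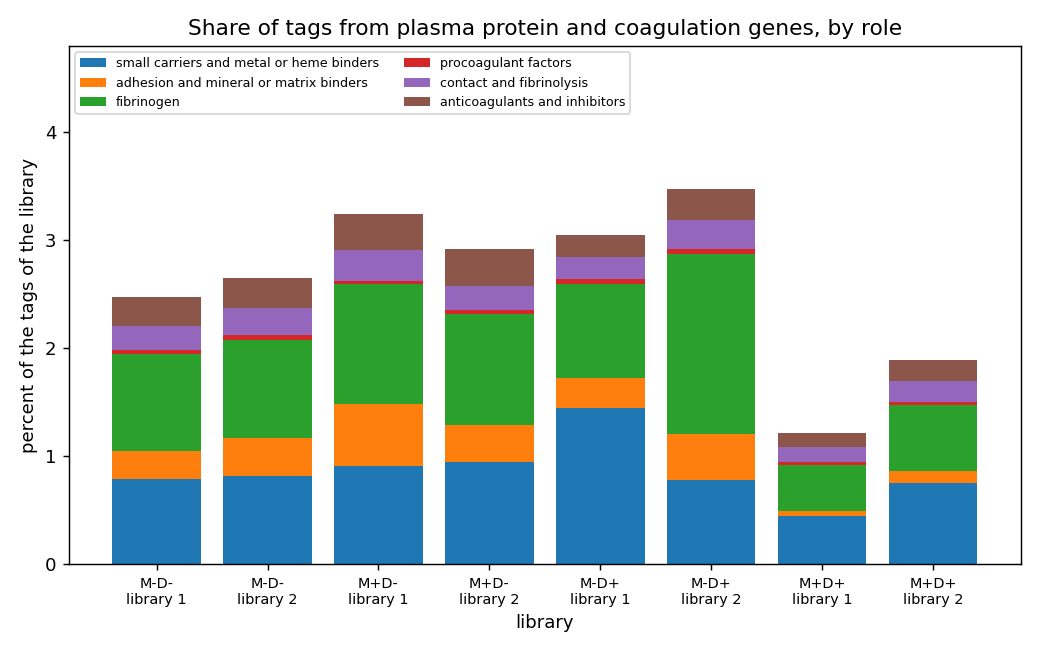
Percent of each library's tags (vertical axis) taken by the 26 plasma protein and coagulation genes in the 8 libraries (horizontal axis), with the bars stacked by role. The sum was 1.22% and 1.89% in the M+D+ libraries and 2.48% to 3.48% in the 6 control libraries; fibrinogen and the carriers made up most of each bar.

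The set was uneven in abundance. The fibrinogen beta chain gene fgb had the highest mean, 5911 CPM over the 8 libraries, and ranked between 9th and 66th of all rows in single libraries. The 5 genes with the highest means (fgb, ambp, rbp4, fgg and plg) held 67.5% to 79.8% of the set's tags in a library, and the 8 with the highest means 88.5% to 92.4%. At the other end, f10, proca and serpinf1 had 2 to 10, 6 to 18 and 4 to 22 tags in a library. These 3 did not reach the filter of 5 CPM in at least 2 libraries and were not tested, which left 23 tested genes. With f7, at 4 to 23 tags, counting error alone is large for them, and no difference in f10, proca or serpinf1 was assessed.

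**Figure D2:**
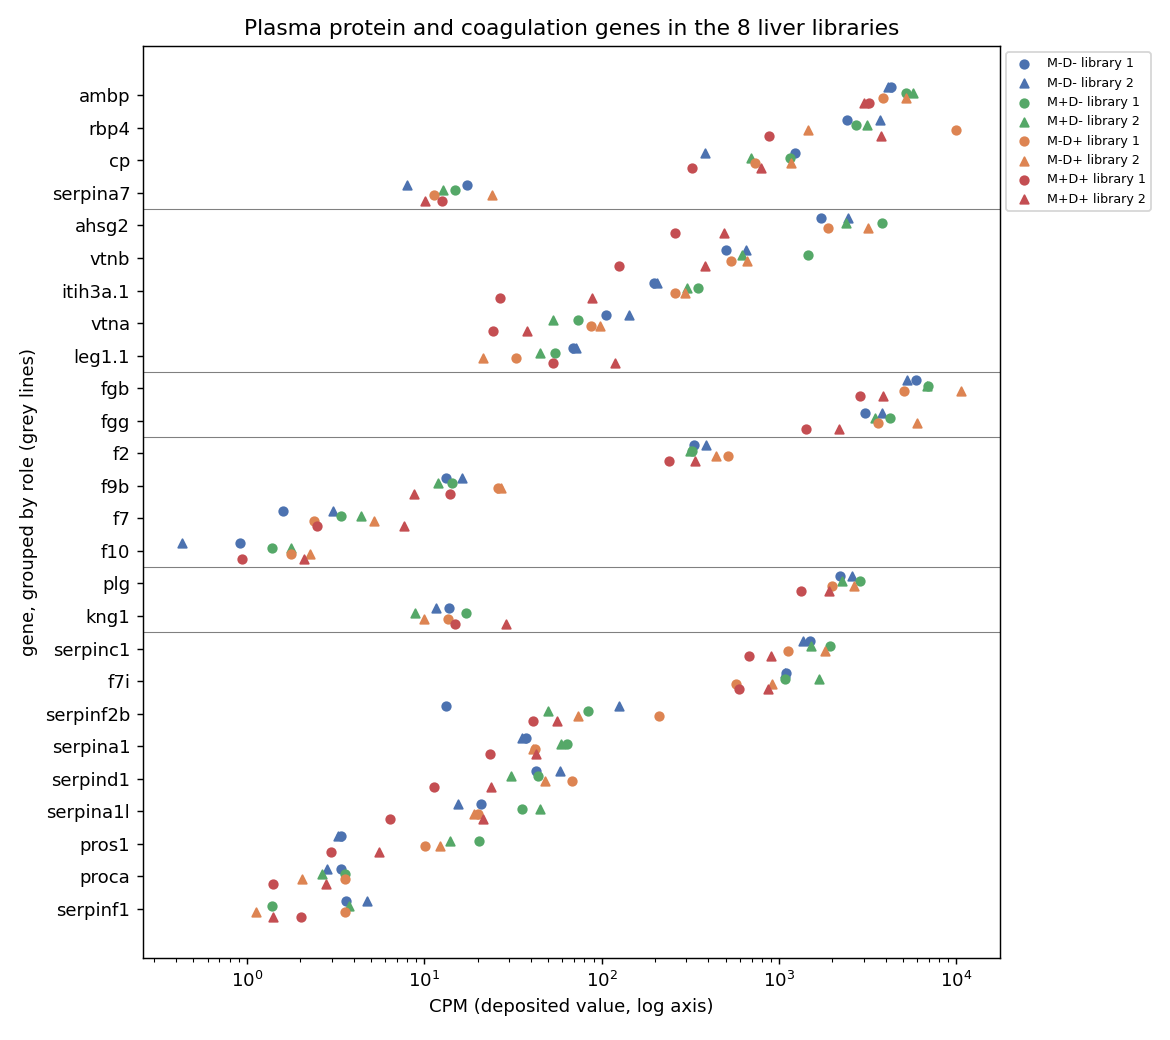
Deposited CPM values (horizontal log axis) of the 26 genes with a row (vertical axis, grouped by role) in each of the 8 libraries; colours are the groups and shapes the 2 libraries. Levels span from 0.43 CPM for f10 to 10613 CPM for fgb, and the M+D+ points of ahsg2, itih3a.1 and vtna lie left of all control points.

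Tumour-labelled livers (M+D+) were compared with the average of the 3 control groups, the contrast the study's design names. Of the 23 tested genes 7 fell and none rose, where 20.7% of all tested rows were called lower and 2.32% higher. The falls were in the fetuin gene ahsg2 (6.96-fold lower), itih3a.1, a heavy chain of the inter-alpha-trypsin inhibitors (5.29-fold), the vitronectin genes vtnb (3.13-fold) and vtna (2.86-fold), the heparin cofactor gene serpind1 (2.75-fold), the fibrinogen gamma chain gene fgg (2.23-fold) and the antithrombin gene serpinc1 (1.93-fold). Relative to the median row these changes were -2.23 for ahsg2, -1.84 for itih3a.1, -1.08 for vtnb, -0.95 for vtna, -0.89 for serpind1, -0.59 for fgg and -0.38 for serpinc1. Falls were common in this comparison: 23.0% of all rows were called in either direction, against 7 of 23 (30.4%) here. The median change of the 23 was -0.71, close to the -0.57 of all rows, with a range from -2.80 to 0.80. On the deposited scale both M+D+ libraries lay below all 6 controls for 10 of the 23, and the same held for 26.9% of all tested rows. After TMM scaling this held for 4 of the 23, ahsg2, itih3a.1, vtna and serpind1. On that scale 18 overlapped and 1, kng1, lay above all controls. The share of all rows separated after TMM scaling is not given here. Where M+D+ is said below to lie under all controls, the deposited values are meant.

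The calls depended on scale and libraries. After TMM scaling 3 of the 7 kept the call, ahsg2, itih3a.1 and vtna, and leg1.1 was called higher, where 5.81% of all rows were called lower and 5.27% higher. EdgeR on recovered tags called ahsg2 and itih3a.1 lower (3.26% of rows) and kng1 and leg1.1 higher (6.55% of rows). DESeq2 on recovered tags called ahsg2, itih3a.1 and vtna lower (4.54% of rows) and kng1 and leg1.1 higher (7.12% of rows). Both tools also rescale the libraries, edgeR by TMM and DESeq2 by its own size factors. Their results are therefore not separate evidence from TMM scaling. For all 7 genes the fall was smallest without M+D+ library 1 and largest without M+D+ library 2. It was -2.34 and -3.25 for ahsg2, and -0.75 and -1.15 for serpinc1. The counts that follow are from fits that left fewer genes called, and some other fits without 1 library left as many or more. The number of genes called was 0 without M+D+ library 1, where 1.46% of all rows were called. It was 4 when M-D- library 1 was omitted, 3 when M-D- library 2 was, 3 when M+D- library 1 was, and 3 when the controls were averaged over M-D- and M+D- alone. Calls over all rows were fewer in those fits too, at 682, 551, 435 and 377 of 4577 in the same order, against 1052 with all libraries and controls.

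On the deposited scale some markers of other cell types were also lower or higher in M+D+ than in the controls. In that comparison 20.7% of all tested rows were called lower and 2.32% higher, and the median row fell. Divided by the TMM factors, the exocrine pancreas, erythrocyte, leukocyte and thrombocyte sums of M+D+ overlapped those of M-D+. The separations of these sums given below therefore hold on the deposited scale only. Marker calls are not given after TMM scaling. The 12 measured exocrine pancreas genes summed to 661 to 1032 CPM in M+D+ and 1233 to 3995 in the controls, and ela2l, cel.1, cpa5 and cpb1 were called lower (adjusted p = 0.00997, 0.0278, 0.0313 and 0.0186). The 5 erythrocyte genes summed to 132 to 198 against 209.8 to 439.8, a sum carried by the globin gene hbba1, which was called lower (-1.16, adjusted p = 0.028). The heme synthesis gene alas2 of the same list was called higher, at 24.5 and 26.5 CPM against 7.5 to 14.9 (1.17, adjusted p = 0.0182). Leukocyte markers (5 genes) summed to 37.0 to 38.4 CPM in M+D+ and 38.8 to 106 in the controls. Endothelial markers (2 genes) summed to 0 in M+D+ and 0 to 1.19 in the controls. They overlapped, since M+D- library 1 was at 0 too, and such low values cannot show a difference. Thrombocyte markers (2 genes) summed to 2.03 to 2.45 against 4.16 to 6.12. Of these gp1bb was called lower (adjusted p = 0.0293), at 1.72 and 0.7 CPM against 3.57 to 5.44. It reached the filter of 5 CPM only in M+D- library 2 and M-D+ library 2, so this call rests on low values. The other, itga2b, was at 0.31 and 1.75 CPM in M+D+ and 0 to 0.88 in the controls. Stellate and fibroblast markers (5 genes), at 18.2 to 41.9 against 23.6 to 349, and biliary markers (5 genes), at 1816 to 2631 against 1348 to 5123, overlapped the controls. The 4 measured hepatocyte markers summed to 138934 to 194271 CPM in M+D+ and 89203 to 230355 in the controls, with fabp10a as the main part (0.05, adjusted p = 0.941). Of these 4, apobb.1 was called lower, at 5663 and 7545 CPM against 8717 to 22228 (-1.35, adjusted p = 0.0278). The part of the marker changes in the falls was not tested.

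**Figure D3:**
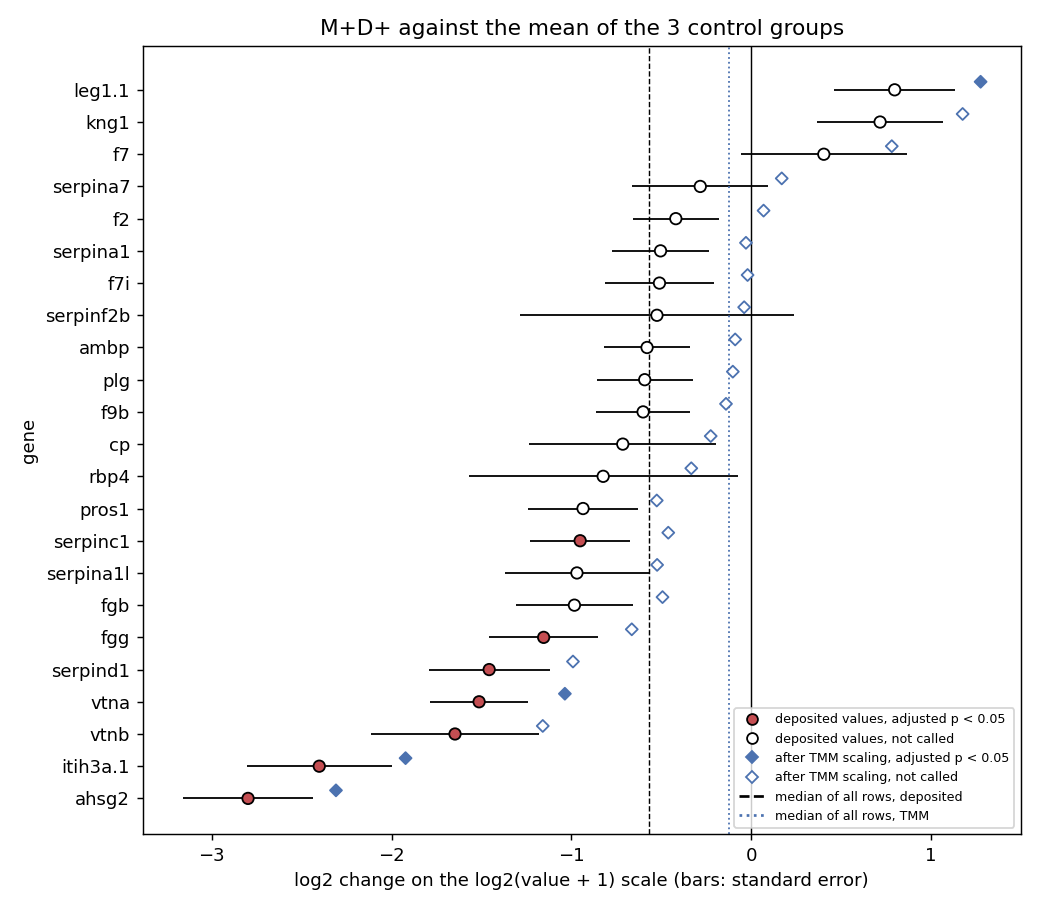
Log2 change in M+D+ relative to the average of the 3 control groups (horizontal axis) for the 23 tested genes (vertical axis), as circles on the deposited values with standard errors and as diamonds after TMM scaling, filled where called; the dashed and dotted lines are the medians of all rows, -0.57 and -0.13. Changes of ahsg2, itih3a.1 and vtna were called on both scales, and leg1.1 only after TMM scaling.

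The group listed as matrix, mineral and adhesion proteins, with leg1.1 placed in it, had 5 tested genes and held 4 of the 7 falls. Of all tested rows 20.7% were called lower. The role groups were drawn up with earlier results known, so this count does not show that falls gathered in 1 function. Fetuin, a carrier of calcium phosphate that in mammals keeps mineral from precipitating in blood, is encoded here by ahsg2 (NM_001100029). For ahsg2 the M-D- libraries held 1719.6 and 2437 CPM, M+D- 3787 and 2370, M-D+ 1896 and 3187, and M+D+ 258 and 486. The M+D+ libraries stood far below every control library, and the change was -2.80 ± 0.36 (adjusted p = 0.00618). After TMM scaling the change was -2.31 (adjusted p = 0.0103). Without M+D+ library 1 it was -2.34 with an adjusted p of 0.054.

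Inter-alpha-trypsin inhibitor heavy chains are joined to the light chain bikunin and transferred onto hyaluronan in the matrix. For the heavy chain gene itih3a.1 (NM_001020588) the M-D- libraries held 198 and 204 CPM, M+D- 350.1 and 302, M-D+ 260.4 and 294, and M+D+ 26.7 and 88.7. Both M+D+ libraries lay below all controls but differed from each other more than any control pair did, and the change was -2.40 ± 0.40 (adjusted p = 0.00997). TMM scaling gave -1.92 (adjusted p = 0.0219), and omitting M+D+ library 1 gave -1.56 on the deposited values (adjusted p = 0.054). Bikunin itself comes from ambp (NM_201118), which also encodes the heme binder alpha-1-microglobulin and was the second most abundant gene of the set. Its M-D- libraries held 4250 and 4111 CPM, M+D- 5189 and 5655, M-D+ 3846 and 5195, and M+D+ 3228 and 3015. The M+D+ libraries were lower than all controls, by a change of -0.58 ± 0.24 that was not called (adjusted p = 0.109) and differed from that of the median row by -0.01. Tags of ambp per tag of itih3a.1 numbered 14.8 to 21.4 in the controls and 121 and 34.0 in M+D+ libraries 1 and 2, a ratio that no scaling of a library alters.

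Vitronectin binds integrins, the plasminogen activator inhibitor and thrombin-antithrombin complexes. Zebrafish have a pair of vitronectin genes. For vtna (NM_001020672) the M-D- libraries held 105.6 and 142 CPM, M+D- 73.3 and 53.5, M-D+ 86.8 and 97.9, and M+D+ 24.5 and 38.1. Both M+D+ values lay below all controls, with a change of -1.51 ± 0.27 (adjusted p = 0.0119). After TMM scaling it was -1.04 (adjusted p = 0.0397), and it was -1.21 when M+D+ library 1 was omitted (adjusted p = 0.0854). For its paralog vtnb (NM_001139461) the M-D- libraries held 499.8 and 647 CPM, M+D- 1462 and 621, M-D+ 537 and 658, and M+D+ 125 and 380.2. Library 1 of M+D- stood high and library 1 of M+D+ low, and the change was -1.65 ± 0.47 (adjusted p = 0.0395). It was -1.16 after TMM scaling, with no call, and -0.85 without M+D+ library 1. There were 19.9 and 11.6 vtnb tags per vtna tag in the M+D- libraries, 4.55 to 6.72 in the other controls, and 5.10 and 9.99 in the M+D+ libraries, so the 2 highest ratios were those of M+D-.

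The remaining gene of this group went the other way. Leg1 is a secreted liver protein needed for growth of the zebrafish embryonic liver. For leg1.1 (NM_001100056) the M-D- libraries held 69.3 and 71.3 CPM, M+D- 54.8 and 45.1, M-D+ 32.7 and 21.5, and M+D+ 53.3 and 119. M+D+ overlapped the untreated groups and lay above M-D+. On the deposited values the change was 0.80 ± 0.34 (adjusted p = 0.115), after TMM scaling it was 1.28 (adjusted p = 0.0319), and edgeR's quasi-likelihood test gave 1.43 (adjusted p = 0.026). Without M+D+ library 2 the change on the deposited values was 0.23.

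Of fibrinogen, the alpha chain gene fga could not be matched to a row. For the beta chain gene fgb (NM_212774) the M-D- libraries held 5935 and 5289.7 CPM, M+D- 6906 and 6810.2, M-D+ 5035 and 10613, and M+D+ 2851 and 3847. For the gamma chain gene fgg (NM_213054) the M-D- libraries held 3056 and 3808 CPM, M+D- 4202 and 3483, M-D+ 3598 and 5989, and M+D+ 1425 and 2185. For both chains the M+D+ libraries lay below all controls, and M-D+ library 2 was the highest. The change was -1.15 ± 0.30 for fgg (adjusted p = 0.0311) and -0.98 ± 0.33 for fgb, which was not called (adjusted p = 0.0616). After TMM scaling neither was called, with changes of -0.66 and -0.49. Without M+D+ library 1 the adjusted p was 0.226 for fgg. Counts of the chains stayed in similar proportion in every library: fgb tags per fgg tag were 1.39 to 1.96 in the controls and 2.001 and 1.76 in M+D+.

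None of the 3 tested procoagulant factors was called. Prothrombin, the precursor of thrombin, was the most abundant of them. For its gene f2 (NM_213390) the M-D- libraries held 332 and 389 CPM, M+D- 324 and 315, M-D+ 513 and 443, and M+D+ 239 and 337. These values overlapped, and the change of -0.42 ± 0.24 (adjusted p = 0.218) became 0.07 after TMM scaling. For the factor IX gene f9b (NM_001040310) the M-D- libraries held 13.2 and 16.3 CPM, M+D- 14.3 and 11.9, M-D+ 26.2 and 27.2, and M+D+ 13.9 and 8.73. M-D+ was the high group here on the deposited scale, and the change against all controls was -0.60 ± 0.26 (adjusted p = 0.124). After TMM scaling M-D+ stood at 15.3 and 19.1, the untreated groups at 13.1 to 16.9 and M+D+ at 19.8 and 10.2. The change was then -0.14. Factor VII, f7, ran from 1.59 to 7.68 CPM and factor X, f10, from 0.43 to 2.27. The related gene f7i, whose product in zebrafish lacks protease activity and restrains clotting, was far more abundant, at 569 to 1679.6 CPM, or 112 to 691 tags per f7 tag in a library.

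Contact and fibrinolysis proteins had 2 tested genes and no call on the deposited values. For the plasminogen gene plg (NM_201472) the M-D- libraries held 2212 and 2574 CPM, M+D- 2867 and 2262, M-D+ 1987 and 2657, and M+D+ 1336 and 1910.2. Both M+D+ libraries were below all controls, by -0.59 ± 0.27 (adjusted p = 0.134), -0.02 from the median row. Kininogen, kng1, the precursor of the peptide bradykinin, was at 14.8 and 29.0 CPM in M+D+ and 8.84 to 17.1 in the controls. Its change was 0.72 ± 0.35 on the deposited values (adjusted p = 0.162) and 1.18 by limma after TMM scaling (adjusted p = 0.0502). After that scaling both M+D+ libraries, at 21.2 and 33.8, lay above all controls. On recovered tags it was called higher by edgeR's quasi-likelihood test (1.32, adjusted p = 0.0438) and by DESeq2 (1.38, adjusted p = 0.028).

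Among the anticoagulants and protease inhibitors 2 of 7 tested genes fell, where 20.7% of all tested rows were called lower. All 7 changes were below 0 on the deposited scale, as was that of the median row (f7i and serpina1 were above 0 by edgeR and by DESeq2). Relative to the median row f7i, serpina1 and serpinf2b stood at 0.058, 0.064 and 0.044, and the other inhibitors at -0.889 to -0.368. Antithrombin is the main inhibitor of thrombin and of activated factor X, and for its gene serpinc1 (NM_182863) the M-D- libraries held 1491 and 1369.5 CPM, M+D- 1932 and 1508, M-D+ 1129 and 1814, and M+D+ 681 and 903. Heparin cofactor II also inhibits thrombin, and for serpind1 (NM_182880) the M-D- libraries held 42.7 and 57.9 CPM, M+D- 44.0 and 30.7, M-D+ 67.8 and 48.0, and M+D+ 11.4 and 23.7. Both genes were lower in each M+D+ library than in any control. The change was -0.95 ± 0.28 for serpinc1 (adjusted p = 0.0423) and -1.46 ± 0.34 for serpind1 (adjusted p = 0.0214). Neither call held after TMM scaling (-0.46 and -0.99) or without M+D+ library 1 (adjusted p = 0.245 and 0.156).

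The other inhibitors were not called. The alpha-1-antitrypsin genes serpina1 and serpina1l had their highest means in M+D-, 61.5 ± 3.2 and 40.05 ± 6.51 CPM. Those of M-D- were 36.4 ± 1.5 and 18.2 ± 3.9, those of M-D+ 41.5 ± 1.0 and 19.6 ± 0.8, and those of M+D+ 33.0 ± 13.5 and 13.9 ± 10.5. The antiplasmin gene serpinf2b varied within groups, from 13.2 to 125 CPM in M-D- alone. Protein S is a cofactor of protein C, and for pros1 (NM_001077323) the M-D- libraries held 3.41 and 3.25 CPM, M+D- 20.3 and 13.9, M-D+ 10.1 and 12.2, and M+D+ 2.97 and 5.59. The M-D- and M+D+ libraries were both low, at 15 to 19 tags each, and the change of pros1 against all controls was -0.94 ± 0.31 (adjusted p = 0.0593). It passed the filter of 5 CPM in at least 2 libraries through M+D- and M-D+, the groups where it was high. Of the other libraries only M+D+ library 2 reached 5 CPM. The calls of pros1 given below are therefore not independent of the filter.

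No carrier was called. Besides ambp these were the retinol carrier rbp4, the copper-binding ferroxidase cp and serpina7, which in humans carries thyroid hormone. They ran from 878.6 to 9894, 322 to 1228 and 8.02 to 24.2 CPM over the 8 libraries, with changes of -0.82 ± 0.75, -0.71 ± 0.52 and -0.28 ± 0.38 (adjusted p = 0.432, 0.329 and 0.595). The highest rbp4 value was in M-D+ library 1, where the other M-D+ library held 1458 CPM, and the 2 M+D+ libraries held 878.6 and 3753 (rbp4 is given by library because its values were seen to spread).

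**Figure D4:**
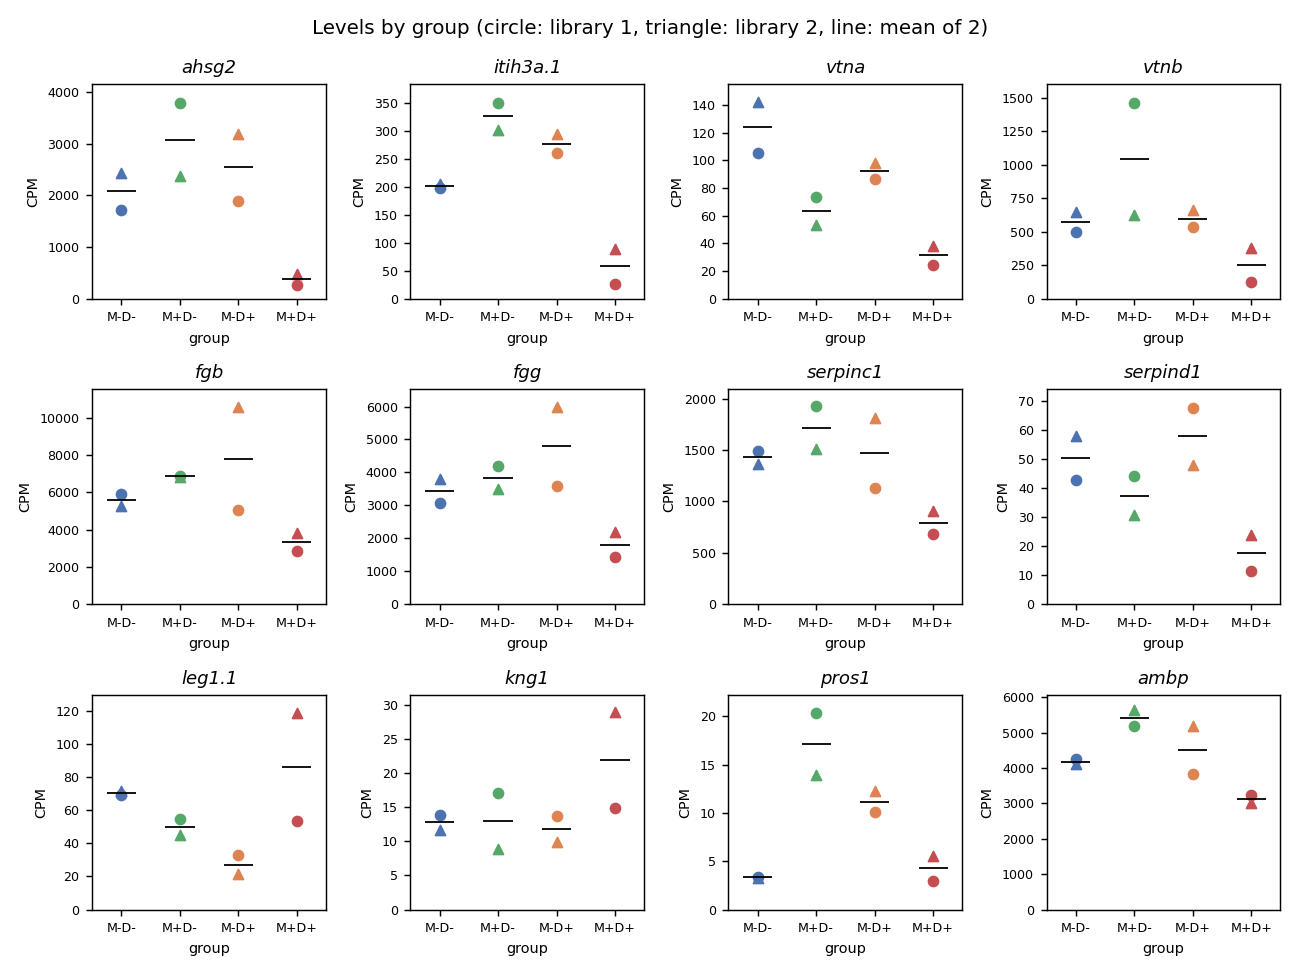
CPM (vertical axes, from 0) of 12 genes by group (horizontal axes), with a circle for library 1, a triangle for library 2 and a line at the mean of the 2. The M+D+ points of ahsg2, itih3a.1, vtna, vtnb, fgb, fgg, serpinc1, serpind1 and ambp lie below every control point, leg1.1 and kng1 overlap the controls, and pros1 is low in both M-D- and M+D+. These are deposited values. After TMM scaling vtnb, fgb, fgg, serpinc1 and ambp overlapped the controls too, and kng1 lay above them.

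M+D+ was next set against each control group alone. These 3 comparisons share the M+D+ libraries, so they are not separate evidence. Against untreated wild-type liver (M-D-), 2 of 23 genes fell, ahsg2 and vtna, where 3.87% of rows were called lower. Their changes were -2.53 ± 0.45 (adjusted p = 0.0252) and -1.97 ± 0.34 (adjusted p = 0.024), and both were also called after TMM scaling (2.73% of rows lower) and by edgeR (1.66% of rows lower). Neither was called when any M-D- or M+D- library or M+D+ library 1 was omitted, fits in which 0% to 1.18% of all rows were called. Over all 8 fits that left out 1 library the change ranged from -2.98 to -2.07 for ahsg2 and from -2.28 to -1.66 for vtna. The change of itih3a.1 here was -2.02 ± 0.50 (adjusted p = 0.0567), and DESeq2 called it lower (adjusted p = 0.0374, with 3.32% of rows lower).

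Against transgenic liver without doxycycline (M+D-), 3 genes fell, where 2.34% of rows were called lower. They were ahsg2 (-3.08 ± 0.45, adjusted p = 0.0215), itih3a.1 (-2.71 ± 0.50, adjusted p = 0.0339) and pros1 (-1.80 ± 0.37, adjusted p = 0.0475). The first 2 were called after TMM scaling (1.70% of rows called) and ahsg2 by edgeR (0.459% of rows lower). The count was 0 here when any M-D- or M+D- library or M+D+ library 1 was omitted, where 0% to 0.306% of all rows were called. The change of vtnb was -2.12 ± 0.58 (adjusted p = 0.0835), and vtna, with lower values in M+D- than in M-D-, changed by -1.01 ± 0.34 (adjusted p = 0.132). DESeq2 called ahsg2, itih3a.1 and vtnb lower (2.53% of rows lower), vtnb at an adjusted p of 0.0374, and did not call pros1 (adjusted p = 0.0833).

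Against wild-type liver on doxycycline (M-D+), 8 genes were lower and 1 higher. With 41.7% of all rows called lower, 2.49% higher and 44.2% either way, the 9 of 23 (39.1%) were near the background. The 8 were ahsg2 (-2.79 ± 0.45, adjusted p = 0.00457), itih3a.1, vtna, fgb, fgg, f9b, serpind1 and pros1, and the gene that rose was leg1.1, 2.93-fold (adjusted p = 0.0198). In this comparison the median row changed by -1.04, so fgb at -1.14 differed from it by -0.11 only, while leg1.1 stood 2.59 above it. After TMM scaling ahsg2 stayed lower (-1.78, adjusted p = 0.0315), and leg1.1 (2.53, adjusted p = 0.00799) and kng1 (1.71, adjusted p = 0.0269) were higher, where 7.30% of rows were called lower and 7.73% higher. Without M+D+ library 1 the number called on the deposited values was 4 of 23, where 23.1% of all rows were called. The leg1.1 call was lost without M+D+ library 2 (0.98, adjusted p = 0.0828) and without M-D+ library 2 (1.26, adjusted p = 0.0753).

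Between the control groups few genes of the set were called. In M+D- against M-D- limma called none of the 23, and none of all 4577 rows (0%). At an unadjusted p below 0.05 there were 2 of the 23, pros1 (2.04 ± 0.37, adjusted p = 0.372) and vtna (-0.96 ± 0.34, adjusted p = 0.506). EdgeR called none, and DESeq2 called 1, pros1 (adjusted p = 0.0338, 0.830% of rows called). In M-D+ against M-D- 1 gene rose, pros1, 2.80-fold (adjusted p = 0.049), where 9.22% of rows were called higher. That call was absent in each of the 8 fits that left out 1 library (adjusted p = 0.0529 to 0.24), after TMM scaling and by edgeR. By DESeq2, f7i, leg1.1 and vtna were lower in M-D+ (adjusted p = 0.0353, 0.000474 and 0.0435, with 2.97% of rows lower).

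The design also allows a test of whether doxycycline acted differently in transgenic and wild-type fish. On the deposited values 3 genes differed, all with a lower response in transgenic fish (7.97% of rows called lower): ahsg2 by -3.34 ± 0.63 (adjusted p = 0.0412), pros1 by -3.29 ± 0.53 (adjusted p = 0.0412) and itih3a.1 by -3.17 ± 0.70 (adjusted p = 0.0455). Mean ahsg2 levels were 2078 ± 507 CPM without and 2541 ± 913 with doxycycline in wild-type fish, and 3079 ± 1003 and 372 ± 162 in transgenic fish. Those of pros1 went from 3.33 ± 0.11 to 11.2 ± 1.5 CPM in wild-type and from 17.1 ± 4.5 to 4.28 ± 1.85 in transgenic fish. Since pros1 passed the filter through M-D+ and M+D-, its call in this contrast is not independent of the filter. The median row changed by -1.07 in this contrast, and after TMM scaling none of the 23 genes was called (0.109% of rows). The changes then were -2.26, -2.37 and -2.09 for ahsg2, pros1 and itih3a.1 (adjusted p = 0.14, 0.101 and 0.188). DESeq2 called ahsg2 (-2.25, adjusted p = 0.0214) and leg1.1 (3.28, adjusted p = 0.000194), where 3.52% of rows were called. On the deposited values the count was 0 when any M-D- or M+D- library or M+D+ library 1 was omitted, fits in which 0 or 1 of all rows was called, and 5 without M-D+ library 1, where 10.2% of all rows were.

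Other genes of the same pathways were tested in M+D+ against the average control, where 20.7% of all tested rows were called lower. Of 11 further coagulation and fibrinolysis genes with a row 4 were tested, and 1 fell: f9a, the other factor IX gene, at 41.3 and 47.5 CPM in M+D+ against 68.7 to 119 in the controls (-1.07 ± 0.23, adjusted p = 0.0186). Of 9 further plasma protein genes with a row 5 were tested and 2 fell. They were ahsg1, the paralog of ahsg2 (3161 and 3948 CPM against 4245 to 11384, -1.17 ± 0.31, adjusted p = 0.0311), and gc, the vitamin D-binding protein (1166 and 1815 CPM against 1535 to 4516, -1.16 ± 0.29, adjusted p = 0.0259). For gc the M-D+ libraries were low as well, at 1535 and 2348 CPM against 3890 to 4516 in the untreated groups, and M+D+ overlapped M-D+. For ahsg1 the M-D+ libraries held 4245 and 7564 CPM and the untreated groups 6932 to 11384. A comparison of M+D+ with M-D+ alone is not given for these 2 genes. The only tested gene of vitamin K metabolism, vkorc1l1, was not called (-0.72 ± 0.41, adjusted p = 0.218). The median change was -0.79 over the 4 clotting genes and -1.17 over the 5 plasma protein genes, and the median of all tested rows was below 0 too. After TMM scaling and by edgeR none of these further genes was called. Tags shared by paralogs such as ahsg1 and ahsg2, vtna and vtnb, or serpina1 and serpina1l may have been split between them in a way the labels do not state, so values of single paralogs are uncertain to that extent.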

How the data were processed

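The deposited tables hold 1 CPM value per RefSeq transcript and library, scaled by the authors to the same total. Transcripts missing from a library's table count as 0. The aligner, the genome build and the rule for assigning tags are, each of them, not given in the sources used here. Values were whole multiples of the worth of 1 tag (100% of values within 0.1 tag), so tag counts could be recovered, with totals of 1682372 to 6399932 tags and an upper limit of 0.469 to 1.783 CPM for a value of 0 (3 tags, counting error only). Gene symbols were matched by accession to RefSeq's table for GRCz12tu (10410 of 15600 rows) and served for names only; no coordinates or sequences are given.

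limma 3.58.1 in R 4.3.3 with a mean-variance trend was run on log2(CPM + 1) of 4577 rows with at least 5 CPM in at least 2 libraries, all 8 libraries in 1 fit of 4 group means, two-sided, with Benjamini-Hochberg adjustment over all rows in each of 7 comparisons. Alternatives were TMM scaling, edgeR 4.0.16 (quasi-likelihood test) and DESeq2 1.42.0 on recovered tags, pseudocounts of 0.5 and 5 CPM, no filter and a filter at 20 CPM, the replicate number as a block, controls without M-D+, and each library left out. EdgeR was run with TMM factors and DESeq2 with its own size factors, so these 2 differ from the main fit in scale as well as in test. Libraries of 1 group always differed beyond counting noise (chi-square over degrees of freedom 33.3 to 92.6).

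The members, the role groups and the further lists were chosen with earlier results of these data known. Values by library are given for genes called in a comparison on the deposited values or, against the mean of the controls, after TMM scaling, for the fibrinogen chains, and for the most abundant gene of each role; kng1 and rbp4 were added after their values were seen. Further genes of the pathways are given where they were called.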

Additional observations from a re-analysis of the deposited data

Results flagged for a closer look

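For 3 genes the response to doxycycline differed between transgenic and wild-type fish by limma's interaction test on the deposited values. The difference, transgenic minus wild-type on the log2 scale, was -3.34 for ahsg2, -3.165 for itih3a.1 and -3.287 for pros1. In ahsg2 and itih3a.1 the M+D+ libraries stood apart from all others, and in pros1 both M-D- and M+D+ were low. The gene pros1 passed the filter on low values through M+D- and M-D+, where it was high. None of the 3 passed after TMM scaling. DESeq2 on recovered tags gave -2.25 for ahsg2 (adjusted p = 0.0214) and called neither itih3a.1 nor pros1.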

How the results depend on the processing

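Over the 8 fits that left out 1 library, the number of genes of the set called was 0 to 9 for M+D+ against the average control (7 with all libraries), 0 to 3 against M-D- (2), 0 to 4 against M+D- (3), 4 to 8 against M-D+ (9), 0 in each fit for M+D- against M-D- (0), 0 in each fit for M-D+ against M-D- (1) and 0 to 5 for the interaction (3). For all rows the counts in the same order were 67 to 1323 (1052 with all libraries), 0 to 433 (239), 0 to 261 (125), 1057 to 1792 (2023), 0 to 1 (0), 0 to 617 (448) and 0 to 511 (377). Pseudocounts moved counts past 1.5 times only for M-D+ against M-D-: 0 genes and 225 rows at 0.5 CPM, and 692 rows at 5 CPM.

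Against the mean of the controls 4 genes and 507 rows were called after TMM scaling, 4 and 449 by edgeR, 534 rows by DESeq2, 4 genes and 556 rows with no filter, and 3 genes and 377 rows with controls averaged without M-D+. Against M-D- 4 genes were called with the filter at 20 CPM, 87 rows with no filter and 85 with the replicate block. Against M+D- 78 rows were called after TMM scaling, 1 gene and 39 rows by edgeR, 211 rows by DESeq2, 66 rows with no filter, and 1 gene and 48 rows with the replicate block. Against M-D+ 3 genes were called after TMM scaling, by edgeR and by DESeq2, with 688, 601 and 705 rows, 5 genes with no filter, and 1263 rows with the filter at 20 CPM. In M+D- against M-D- DESeq2 called 1 gene and 38 rows. In M-D+ against M-D- the counts were 0 genes and 1 row after TMM scaling, 0 and 0 by edgeR, 3 and 167 by DESeq2, 0 and 3 with no filter, 0 genes with the filter at 20 CPM, and 0 and 0 with the replicate block. For the interaction 0 genes were called after TMM scaling, by edgeR, with no filter and with the replicate block, with 5, 0, 0 and 6 rows, and DESeq2 called 161 rows. The summed share of tags after TMM scaling was 2.90% in M-D- and 2.11% in M-D+. The causes of these differences were not tested. The filter at 20 CPM left 2289 rows to test, and with no filter 15600 rows were tested.

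The sign of uncalled changes against the average control turned for f2 (0.069, 0.136 and 0.187 after TMM scaling, by edgeR and by DESeq2), serpina7 (0.17, 0.185 and 0.231 likewise), f7i (0.015 by edgeR, 0.068 by DESeq2) and serpina1 (0.059 and 0.11 likewise). By DESeq2 alone it turned for ambp (0.015), f9b (0.033) and plg (0.008). Over the fits that left out 1 library it ranged from -1.87 to 0.224 for rbp4, from -0.251 to 1.059 for f7 and from -1.049 to 0.002 for serpinf2b, with the sign turned without M+D+ library 1, M+D+ library 2 and M-D- library 2.

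The labels do not say whether replicate numbers pair the libraries. Differences between library 1 and library 2 correlated between groups at -0.33 to 0.04 over rows. With 1 such difference per group, this cannot show whether libraries were handled in pairs. With the replicate block 5 of the 7 genes stayed called against the mean of the controls, and 727 rows. Depth limits f7, f10, proca and serpinf1, whose lowest libraries held 2 to 6 tags. It also limits pros1, which held 15 to 19 tags in the M-D- and M+D+ libraries and 17 in M-D+ library 1.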
